A study of Mus musculus with 6 samples.

Results

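The genes described here are the odorant receptor genes whose transcripts were detected in bulk RNA of the mouse olfactory bulb. They were chosen by name and by detection: genes with a symbol that begins with Olfr and with at least 1 read in at least 2 of 5 libraries. Of 1088 odorant receptor genes in a table of 22095 genes, 93 met this rule (8.55%), 164 had reads in exactly 1 of the 5 libraries and 831 had none. The values that chose the members were their own read counts, so the number of members and the libraries in which they were seen are descriptions and carry no test. The rule did not use the side of the bulb, but it counted 3 right and 2 left libraries, so a receptor read on the right alone had 3 pairs of libraries in which to meet it and a receptor read on the left alone had 1.

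The study sequenced polyadenylated RNA from 6 libraries labelled as the left and right olfactory bulbs of 3 outbred ICR mice, numbered 1037, 1038 and 1039. The left naris of every mouse was closed with a silica gel plug at postnatal day 30, and dissection followed after 60 days. By the labels each mouse gave a left bulb, served by the closed naris, and a right bulb, served by the open naris. All 3 mice carried a plug, so sides that differ in any mouse cannot be told apart from sides that differ through the plug.

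An odorant receptor is a G protein-coupled receptor, and a mature olfactory sensory neuron of the nasal epithelium expresses a single one of these genes, from a single allele. Axons of the neurons that express the same receptor converge on the same glomeruli of the bulb. The cell bodies of these neurons lie in the nose and not in the bulb, but receptor mRNA is also carried into their axons and terminals, and it is by that route that bulb tissue is known to hold receptor transcripts.

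The 6 libraries held 14571453 to 15590938 reads over all genes, so a single read corresponds to about the same share in each. The library labelled left 1038 did not look like the others. In it the summed level of 3 markers of cerebellar granule cells was 3167 CPM (reads relative to the library total, scaled to 1000000 reads), against 1.35 to 3.17 CPM in the others, and that of 4 markers of bulb interneurons was 10.8 CPM against 1105 to 1437 CPM. Its levels go against its label, so left and right were compared over left 1037 and left 1039 against right 1037, 1038 and 1039, and the library labelled left 1038 is given beside them as a value. Over all genes, edgeR's quasi-likelihood test called 931 of 14412 genes lower and 456 higher on the left. With scaling by the library total alone, 589 were lower and 975 higher, and no gene passed in the 6 libraries (1196 at an unadjusted p under 0.05).

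Receptor transcripts were rare in every library, and they were rarer on the plugged side. The 93 detected receptors held 180 reads in left 1037 and 152 reads in left 1039, against 246, 228 and 247 reads in right 1037, 1038 and 1039. As shares of the library these were 11.7 CPM (95% Wilson interval 10.1 to 13.5) and 10.1 CPM (8.61 to 11.8) on the left. On the right they were 15.8 CPM (13.9 to 17.9), 15.1 CPM (13.3 to 17.2) and 16.9 CPM (14.9 to 19.1). Both left libraries lay below all 3 right libraries. The left mean was 10.9 ± 1.11 CPM (SD, n = 2) and the right mean 15.9 ± 0.886 CPM (SD, n = 3), a left over right ratio of 0.683, or -0.55 on the log2 scale. Within mouse 1037 the ratio was 0.739 (exact conditional interval 0.606 to 0.899), and within mouse 1039 it was 0.598 (0.486 to 0.735). These intervals cover counting error only and test nothing. Of the members, 42 had no left read and entered through right libraries alone, against 2 through left libraries alone, so the rule itself lowers these ratios. For reads that come from sensory axons, fewer axons and less receptor RNA per axon cannot be told apart in bulk tissue. How many of the reads came from such axons was not tested.

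The sum over all 1088 receptor genes, which were taken by name and not by their counts, also placed both left libraries below all 3 right ones. It was 210 and 162 reads on the left and 303, 299 and 287 reads on the right. The 3 right libraries held 19.4 to 19.8 CPM, and the left libraries held 13.6 and 10.8 CPM. The left over right ratio was 0.621. The detected receptors held 1053 of the 1261 receptor reads of the 5 libraries (83.5%), and the 164 genes seen in a single library held the others.

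**Figure D1:**
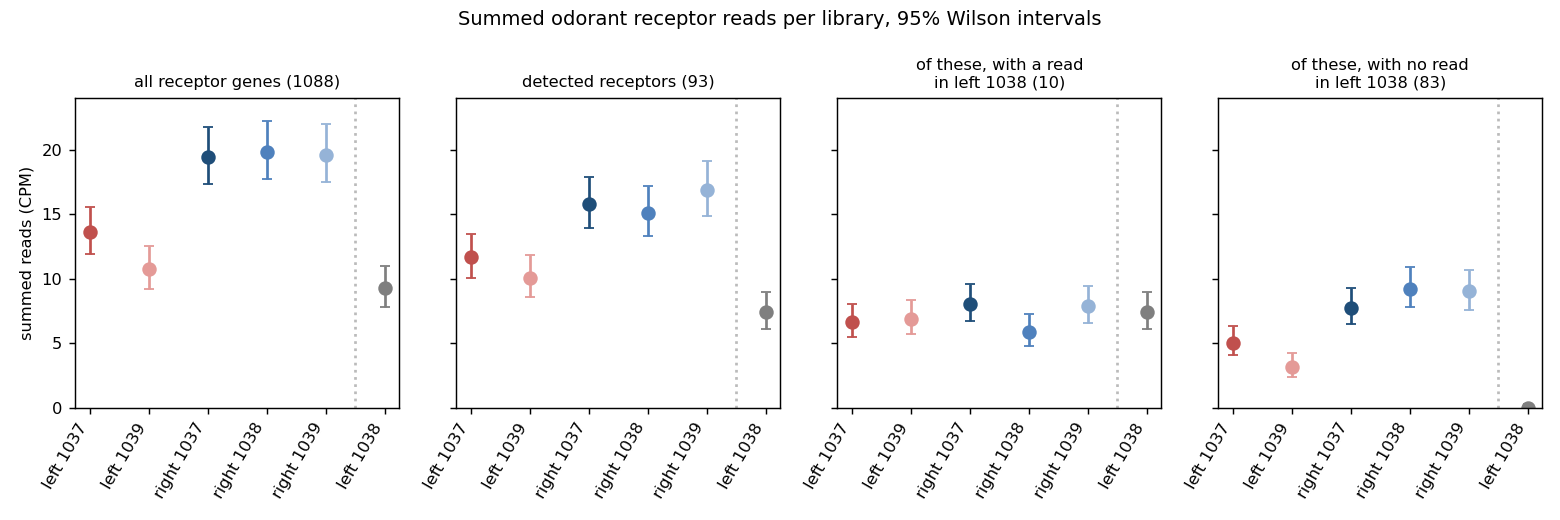
Summed odorant receptor reads per library in CPM (vertical axis, linear, from 0), for all receptor genes, the detected receptors, and the detected receptors with and without a read in the library labelled left 1038. Points are libraries and bars are 95% Wilson intervals of counting error; left libraries are red, right libraries blue, and the library labelled left 1038, which entered no comparison, is grey. In the first 2 panels both left libraries lie below all 3 right libraries, in the third the sides overlap, and in the fourth the left libraries lie at 5.05 and 3.19 CPM against 7.76 to 9.21 CPM.

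More receptors were seen on the right as well. Of the 93 detected receptors, 39 and 26 had a read in left 1037 and left 1039, against 55, 73 and 61 in right 1037, 1038 and 1039. The means were 32.5 ± 9.19 genes on the left (SD, n = 2) and 63 ± 9.17 genes on the right (SD, n = 3), and the sides did not overlap. Among the receptors seen in a single library, which the rule left out, 23 and 7 were seen in left 1037 and left 1039 and 47, 55 and 32 in the right libraries. The rule lies in the range of single reads. Just inside it, 52 members had reads in exactly 2 libraries, and 22 of these had 1 read in each. Just outside it, 129 of the 164 receptors of a single library had 1 read in all. Another 23 members had reads in 3 libraries, 9 in 4 and 9 in all 5.

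The library labelled left 1038 also held receptor reads, 108 for the members (7.41 CPM, 6.14 to 8.95) and 135 for all receptor genes. They came from few genes: 10 of the 93 members had a read there, against 26 to 73 in each of the other libraries. Split by this library, which the rule did not use, the members formed a set whose sides overlapped and a set that was lower on the left. The 10 members with a read in it held 102 and 104 reads on the left and 125, 89 and 115 reads on the right. Their means were 6.76 ± 0.209 CPM (SD, n = 2) and 7.25 ± 1.18 CPM (SD, n = 3), and the sides overlapped. The 83 members without a read in it held 78 and 48 reads on the left and 121, 139 and 132 reads on the right, with means of 4.12 ± 1.32 and 8.66 ± 0.785 CPM (SD, n = 2 and 3) and a ratio of 0.476. Their ratio was 0.651 (0.483 to 0.873) within mouse 1037 and 0.354 (0.249 to 0.496) within mouse 1039. For all 1066 receptor genes without a read in that library, whether detected elsewhere or not, the reads were 108 and 55 on the left and 176, 209 and 172 on the right, a ratio of 0.433. A receptor with no read in that library may still be transcribed in the tissue it came from, since 0 reads allow up to 3. The split by this library was chosen after the data were seen. All 42 members without a left read fall in the set of 83, and they became members through right libraries alone, so the member rule itself lowers the ratio of that set. The set of 1066 genes was not chosen by detection in the 5 libraries.

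Most members rested on a handful of reads. Of the 93, 76 never exceeded 3 reads in any of the 5 libraries, 26 never exceeded 1 read, and 6 reached 10 or more. The 6 members with the most reads, Olfr287, Olfr613, Olfr32, Olfr78, Olfr920 and Olfr558, held 636 of the 1053 reads (60.4%). Their share of the members' reads was 72.2% and 77.0% in the left libraries and 61.0%, 49.1% and 51.4% in the right libraries, and 81.5% in the library labelled left 1038. The other 87 members held 50 and 35 reads on the left against 96, 116 and 120 on the right. Of those right reads, 172 belong to the 42 members without a left read, so the rule fixes part of this contrast. Counts of reads are not levels per length: the authors' gene models were not those of the annotation used here, so genes are ordered by reads and their levels are not ranked.

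**Figure D2:**
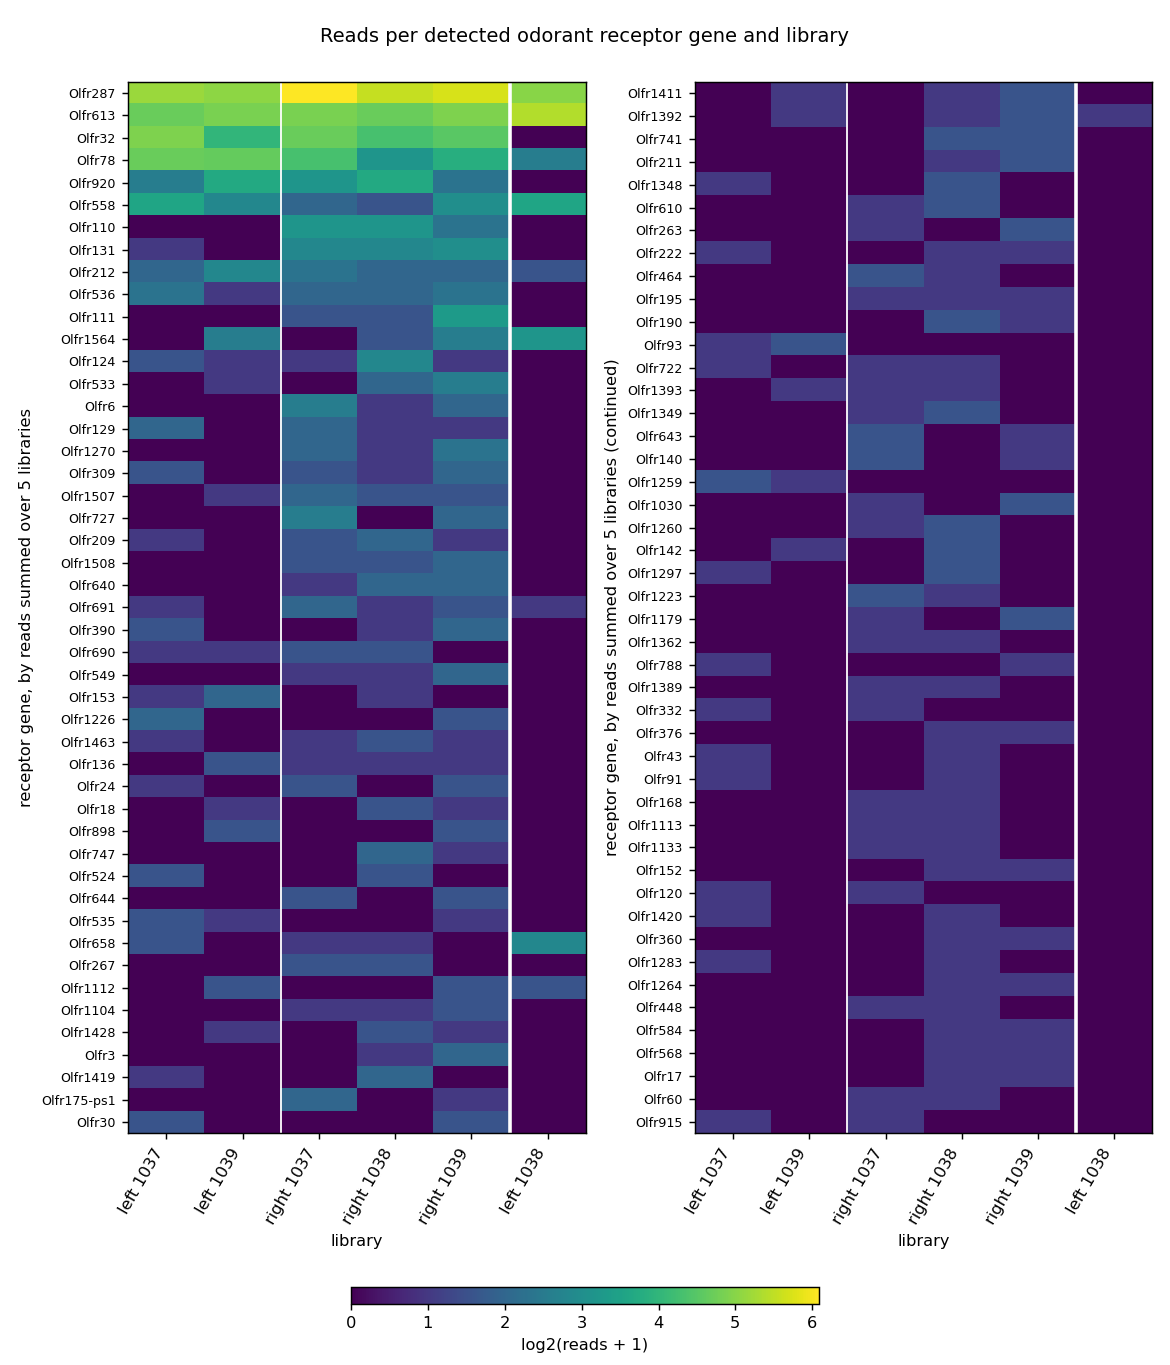
Reads of each of the 93 detected receptors (vertical axis, ordered by reads summed over the 5 libraries, continued in the right panel) in each of the 6 libraries (horizontal axis), coloured by log2(reads + 1), with 0 reads darkest. White lines separate left from right libraries and set off the library labelled left 1038. The 6 receptors at the top are bright on both sides, while in the rows below them the right libraries hold more coloured cells than the left.

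Of the members, 5 had enough reads to enter edgeR's quasi-likelihood test with a filter on low counts. None of the 5 was called at an adjusted p under 0.05, against 9.62% of all genes tested in either direction and 6.46% in the lower direction. At an unadjusted p under 0.05, 1 of the 5 passed, beside 3573 of the 14412 genes tested. DESeq2 and limma-voom also called 0 of the 5, but DESeq2 gave no adjusted p for Olfr32, Olfr78 and Olfr920, which it could not call. Without the filter all 93 could be tested, and 1 was called, lower on the left, against 7.78% of all genes in either direction and 5.05% in the lower direction. At an unadjusted p under 0.05 this fit had 7 members lower and 0 higher, beside 3713 of 17857 genes in either direction. The members entered through the same counts that are compared here, so nothing is read from these shares.

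Olfr287 was the member with the most reads (ENSMUSG00000090129, chromosome 15, 98206971 to 98221056 on GRCm38, minus strand). It had 35 and 32 reads in left 1037 and left 1039 and 67, 46 and 52 reads in right 1037, 1038 and 1039. Both left libraries lay below all 3 right libraries. The means were 2.20 ± 0.101 CPM (SD, n = 2) and 3.63 ± 0.629 CPM (SD, n = 3), and the log2 ratio was -0.81 (SE 0.26), which did not pass (edgeR, adjusted p = 0.0906). The library labelled left 1038 held 31 reads of it. Its closest relative among the receptors was Olfr288, with 96.6% identity of transcripts, and its exons overlap those of Gm44579, so reads could have been shared among them.

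Olfr613, a receptor of the class I cluster on chromosome 7 (103548074 to 103555506), had 25 and 28 reads on the left and 28, 25 and 29 on the right. The 5 libraries lay close together, with a log2 ratio of -0.14 (SE 0.30, edgeR adjusted p = 0.824), and the library labelled left 1038 was the highest of all with 41 reads. Olfr32 (chromosome 2, 90136273 to 90142296) had 29 and 15 reads on the left, 25, 19 and 22 on the right and 0 in the library labelled left 1038. Its left libraries enclosed the right ones, and the log2 ratio of -0.10 (SE 0.38, edgeR adjusted p = 0.906) was 0.30 without left 1039. Olfr920 (chromosome 9) had 5 and 12 reads on the left, 8, 12 and 4 on the right and 0 in the library labelled left 1038, a log2 ratio of -0.004 (SE 0.60).

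Olfr78 was the 1 tested member with both left libraries above all 3 right ones. Its human counterpart is known as a prostate-specific G protein-coupled receptor, and Olfr78 itself is known outside the nose from the glomus cells of the carotid body and from vascular smooth muscle. It lies in the class I cluster (chromosome 7, 102738511 to 102759471) and had 25 and 24 reads on the left and 19, 8 and 13 on the right. The left mean was 1.61 ± 0.0188 CPM (SD, n = 2) and the right mean 0.879 ± 0.344 CPM (SD, n = 3). The log2 ratio of 0.78 (SE 0.40) did not pass (edgeR, adjusted p = 0.271) and was 0.52 without right 1038 and 1.11 without right 1037. Its neighbour Olfr558, also known from vascular smooth muscle, had 11 and 6 reads on the left, 3, 2 and 7 on the right and 11 in the library labelled left 1038, and its sides overlapped. Olfr78 overlaps Olfr560, which had 0 reads in every library, and Olfr558 overlaps the pseudogene Gm45688.

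The 9 members with reads in all 5 libraries were Olfr287, Olfr613, Olfr32, Olfr78, Olfr920, Olfr558, Olfr212, Olfr536 and Olfr124. Together they held 139 and 125 reads on the left and 158, 124 and 135 on the right, and their sides overlapped. Olfr212, with 3 and 6 against 4, 3 and 3 reads, and Olfr536, with 4 and 1 against 3, 3 and 4 reads, were low on both sides. Olfr124 had 2 and 1 reads on the left and 1, 6 and 1 on the right. The remaining 84 members, which by this choice lack a read somewhere, held 41 and 27 reads on the left and 88, 104 and 112 on the right.

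Some members were read on 1 side alone. No read in either left library and at least 1 in all 3 right libraries was the pattern of 9 members: Olfr110, Olfr111, Olfr6, Olfr1270, Olfr1508, Olfr640, Olfr549, Olfr1104 and Olfr195. They held 76 reads in the right libraries, and none had a read in the library labelled left 1038. Another 33 members had no left read and reads in exactly 2 right libraries, with 96 reads in all. The reverse, a read in both left libraries and none in the 3 right ones, was the pattern of 2 members, Olfr93 with 1 and 2 reads and Olfr1259 with 2 and 1. By the same detection rule these patterns held for 0.283%, 0.973% and 0.295% of all genes. The genes of the table differ in depth from the receptors, and nothing is read from these shares. The other 49 members had reads on both sides, 326 on the left and 549 on the right. As noted for the rule, right-only receptors had more ways to become members.

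Olfr110 (chromosome 17, 37492468 to 37500207, plus strand) had the most reads of the members seen on the right alone, with 8, 8 and 4 reads in right 1037, 1038 and 1039 and 0 in both left libraries. Its right mean was 0.439 ± 0.144 CPM (SD, n = 3). The 3 reads that a count of 0 allows over both left libraries together set a limit of 0.0984 CPM. The right mean was 4.46 times this limit. Counting error of the right mean is not in this fold. Right-only members were chosen by their right reads, so a lower left is fixed by the choice and nothing is tested. Olfr110 was the 1 member called without the filter (edgeR, adjusted p = 0.0437), from the same counts that made it a member. In that fit a gene with 0 reads on a side has no bounded fold. Olfr111, its neighbour with 95.1% identity, had 0 reads on the left and 2, 2 and 9 on the right. Its right mean was 2.97 times the limit, but 1.33 times it without right 1039, which held most of its reads. Reads of the pair could have been shared between them. Olfr131, on the same chromosome, had 1 and 0 reads on the left and 6, 6 and 7 on the right (edgeR without the filter, adjusted p = 0.0901).

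The other right-only members were nearer to the limit. Olfr6 had 5, 1 and 3 reads on the right (right mean 2.01 times the limit) and Olfr1270 had 3, 1 and 4 (1.80 times). Olfr640, with 1, 3 and 3, and Olfr1508, with 2, 2 and 3, each had a right mean 1.58 times the limit. Olfr549, with 1, 1 and 3 reads, had a right mean 1.14 times the limit, and without right 1039 this mean fell under the limit. With so few reads the right means are themselves uncertain. For Olfr1104 and Olfr195 the right mean lay under the limit, so no fold is given. Olfr1508 is the receptor known as MOR10, and Olfr1507, known as MOR28, lies beside it and gave the gene cluster on chromosome 14 its name in studies of receptor choice. Olfr1507 had 0 and 1 reads on the left and 3, 2 and 2 on the right. Olfr727, of the same cluster, had 0 reads on the left and 5, 0 and 3 on the right.

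Several named members with reads on both sides showed no order of the sides. Olfr1564 had 0 and 5 reads on the left, 0, 2 and 5 on the right and 8 in the library labelled left 1038. Olfr533 had 0 and 1 against 0, 3 and 5 reads, Olfr129 had 3 and 0 against 3, 1 and 1, and Olfr309 had 2 and 0 against 2, 1 and 3. Over the 93 members, 14 (15.1%) had every left CPM below every right CPM, near the 12.3% of all genes with reads in at least 2 of the 5 libraries. The reverse, every left CPM above every right CPM, held for 3 members (3.23%), Olfr78, Olfr93 and Olfr1259, against 29.9% of all genes by the same rule. In genes of so few reads a 0 on both sides counts as an overlap, so the shares of members and of all genes are not on the same depth. The shares also rest on scaling by the library total. By that scaling 589 genes were called lower and 975 higher, against 931 and 456 with TMM scaling.

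**Figure D3:**
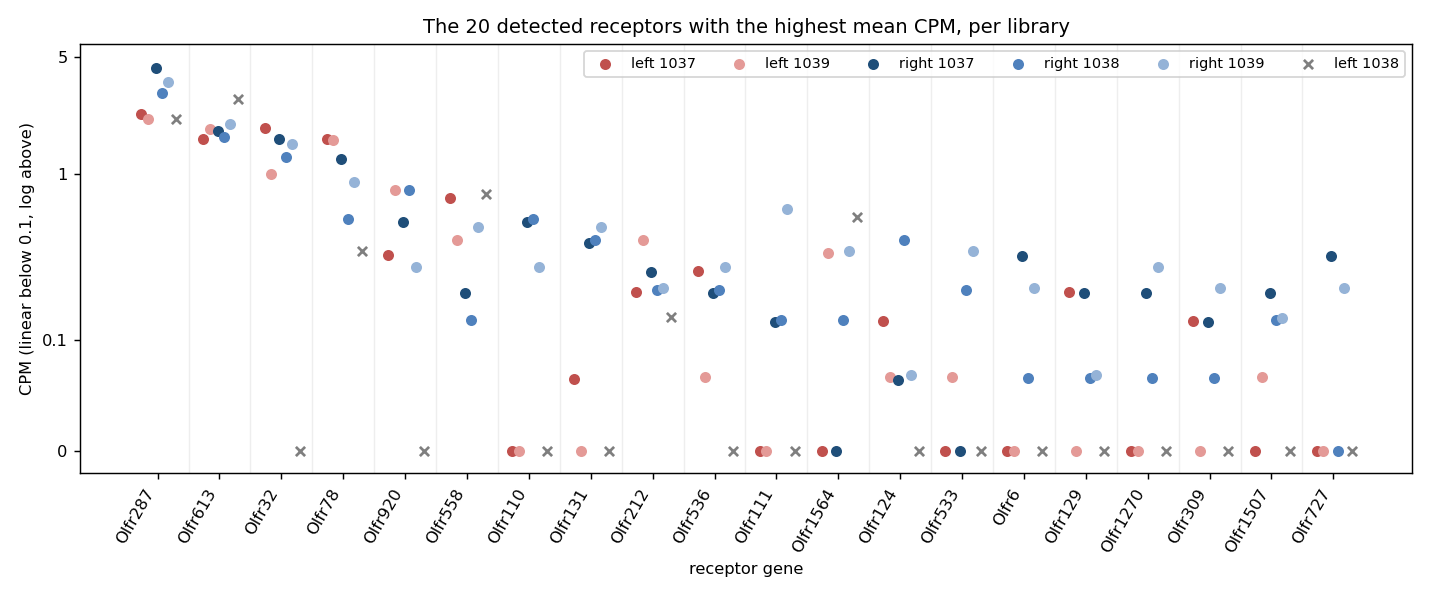
CPM per library of the 20 detected receptors with the highest mean CPM over the 5 libraries (horizontal axis). The vertical axis is linear below 0.1 CPM and logarithmic above; red points are left, blue points right, and crosses the library labelled left 1038. Olfr287 lies lower and Olfr78 higher in both left libraries than in every right library, while Olfr110, Olfr111, Olfr6, Olfr1270 and Olfr727 lie at 0 in both left libraries.

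Promoters of 74 of the 93 members were found in RefSeq's table (GRCm38.p6). The 250 bases before the annotated start are printed 5′ to 3′ for 4 of them, to set members that were read on both sides (Olfr287 and Olfr32) beside members that were read on the right alone (Olfr110 and Olfr1508). Capitals mark matches, on either strand, to TAATNA, the core bound by homeodomain factors, or to CCCNNGGG, the core bound by Olf/EBF factors, both known from receptor promoters. The windows are chr15:98221057-98221306 (minus strand), chr2:90142294-90142543 (minus), chr17:37492218-37492467 (plus) and chr14:52467462-52467711 (minus), in the order of the lines.
Olfr287: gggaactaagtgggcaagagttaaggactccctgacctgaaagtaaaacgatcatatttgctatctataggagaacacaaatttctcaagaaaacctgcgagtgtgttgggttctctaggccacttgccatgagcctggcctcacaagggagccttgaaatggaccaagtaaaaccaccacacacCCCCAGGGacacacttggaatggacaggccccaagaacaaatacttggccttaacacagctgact
Olfr32: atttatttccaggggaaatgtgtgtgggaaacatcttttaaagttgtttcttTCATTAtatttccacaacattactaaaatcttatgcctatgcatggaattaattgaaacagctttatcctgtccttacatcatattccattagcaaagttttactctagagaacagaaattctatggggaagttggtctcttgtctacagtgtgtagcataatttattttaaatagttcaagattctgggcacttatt
Olfr110: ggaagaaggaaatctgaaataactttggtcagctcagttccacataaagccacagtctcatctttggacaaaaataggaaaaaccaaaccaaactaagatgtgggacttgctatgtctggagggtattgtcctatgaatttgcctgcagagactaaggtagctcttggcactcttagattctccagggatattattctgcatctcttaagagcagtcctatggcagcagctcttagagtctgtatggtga
Olfr1508: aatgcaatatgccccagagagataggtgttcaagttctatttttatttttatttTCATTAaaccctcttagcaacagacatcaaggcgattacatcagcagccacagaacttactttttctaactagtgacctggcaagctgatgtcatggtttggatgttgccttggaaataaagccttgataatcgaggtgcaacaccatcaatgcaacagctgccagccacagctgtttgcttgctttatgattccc

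The Olfr287 window held 1 CCCNNGGG, those of Olfr32 and Olfr1508 held 1 TAATNA each, and that of Olfr110 held neither. TAATNA was present in 41 of the 74 member promoters (55.4%), in 64.5% of the promoters of other receptors and in 24.3% of all promoters of the table. CCCNNGGG was present in 4 of the 74 (5.41%), in 2.52% of the other receptors' promoters and in 11.8% of all promoters. By their letters the motifs cannot overlap each other. A match describes letters only.

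By position, the detected receptors were spread over 27 of the 49 clusters into which receptor genes fall when neighbours under 1000000 bases apart are joined. The class I cluster on chromosome 7 (102476579 to 105369355), which holds the receptors most like those of fish, had 127 receptors and 13 members. All its receptors together had 68 and 59 reads on the left, 68, 56 and 67 on the right and 64 in the library labelled left 1038, a left over right ratio of 0.987. Most of these reads came from Olfr613, Olfr78 and Olfr558. The other 10 members of the cluster held 4 and 1 reads on the left and 13, 12 and 13 on the right.

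Over the 27 clusters with a member, both left libraries lay below all 3 right ones in 8 and above them in 0, and the sides overlapped in 19. These clusters were kept for holding a member, and right-only receptors had more ways to become members. The rule therefore fixes part of this order, and nothing is read from these counts. The cluster on chromosome 17 (37083871 to 38336643), with 46 receptors and 9 members, had 10 and 5 reads on the left, 24, 33 and 23 on the right and 0 in the library labelled left 1038. That is 0.490 ± 0.223 against 1.77 ± 0.365 CPM (SD, n = 2 and 3), a ratio of 0.278. The chromosome 14 cluster (49894258 to 52495749), with 36 receptors and 6 members, had 3 and 1 reads on the left and 15, 13 and 12 on the right, a ratio of 0.148. A cluster on chromosome 16 (58759544 to 59363993), with 25 receptors and 4 members, had 2 and 0 against 7, 8 and 5 reads. A second cluster on chromosome 7 (106675005 to 108894420), with 68 receptors and 2 members, had 0 reads in both left libraries and 10, 7 and 7 on the right. In the largest cluster, on chromosome 2 (85330779 to 90292841), 204 receptors with 17 members had 37 and 25 reads on the left and 47, 39 and 49 on the right, a ratio of 0.680. The cluster on chromosome 9 (37708964 to 40190134), with 95 receptors and 3 members, had 11 and 15 against 15, 18 and 8 reads, and its sides overlapped. They also overlapped in another cluster on chromosome 7 (140159999 to 140705606), where 19 receptors with 5 members had 9 and 3 against 6, 9 and 10 reads. In the chromosome 19 cluster (11826803 to 13921866), 66 receptors with 4 members had 5 and 1 against 6, 13 and 3 reads. Chromosome 11 held 3 clusters with 3 members each, with 1 and 2 against 2, 7 and 3 reads, 4 and 0 against 1, 3 and 3 reads, and 3 and 1 against 0, 3 and 5 reads. Differences between clusters were not tested.

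**Figure D4:**
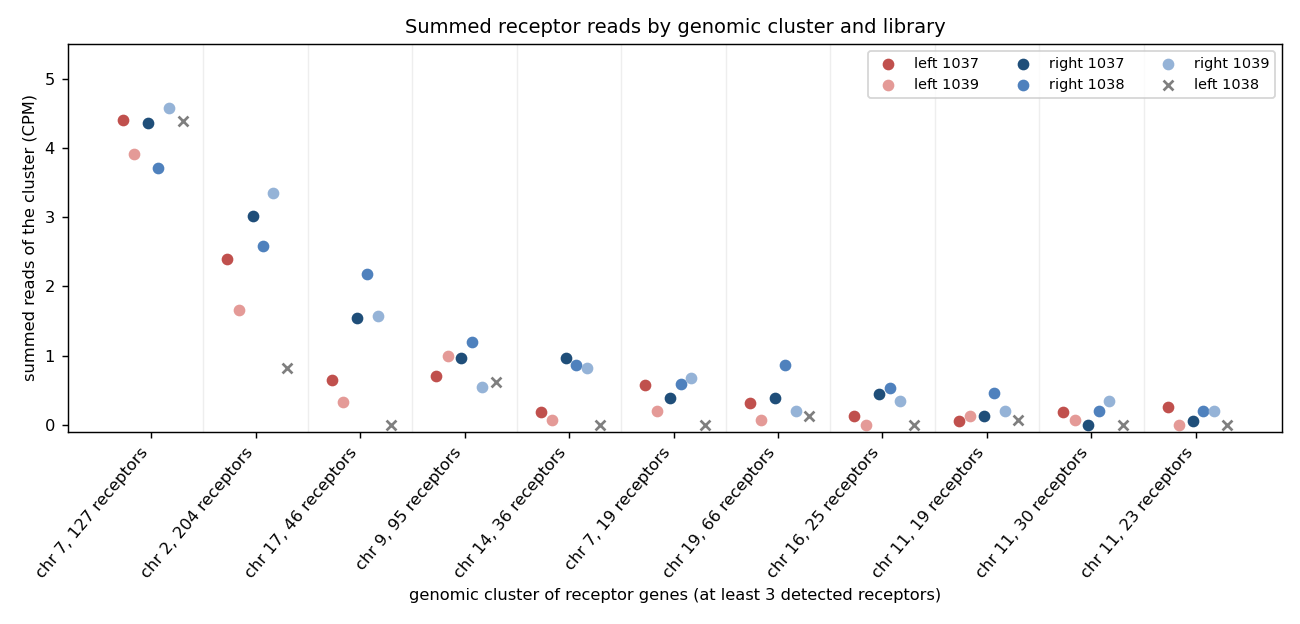
Summed reads of all receptor genes of a genomic cluster in CPM (vertical axis, linear) for the 11 clusters with at least 3 detected receptors (horizontal axis, by chromosome and number of receptors, ordered by right mean). Red points are left, blue points right, and crosses the library labelled left 1038. The class I cluster on chromosome 7 with 127 receptors lies near 4 CPM in all 6 libraries, while the left libraries lie below the right ones in the clusters on chromosomes 2, 17, 14 and 16.

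Long gene models were more frequent among the members than among other receptors. The deposited gene length exceeded 1200 bases in 47 of 93 members (50.5%) and in 254 of the 995 other receptors (25.5%). Seen the other way, 15.6% of the 301 long models and 5.84% of the 787 short models were members, and 8 of the 9 members with reads in all 5 libraries had a long model. Coding length did not separate them, with a median of 939 bases in members and in other receptors. A close copy, at 90% identity or more, was present for 27 members (29.0%) and 368 other receptors (37.0%), and at 97% or more for 2 and 34. Of the members, 10 overlapped another gene, 8 of them by exons, and all but 1 were annotated as protein coding.

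Genes by which sensory neurons signal were lower on the left more often than higher. Of 18 tested genes of odorant signalling in sensory neurons, 8 fell and 2 rose on the left, with a median log2 ratio of -0.31 against 0.005 over all genes tested. Over all genes, 931 of 14412 were called lower (6.46%) and 456 higher, and the lists below have the same background. S100a5, a calcium sensor whose expression in these neurons follows activity, had 3.63 and 1.53 CPM on the left and 108, 76.8 and 75.7 CPM on the right. Omp, which marks mature sensory neurons, had 35.1 and 8.43 CPM on the left and 134, 123 and 105 CPM on the right (log2 ratio -2.55, edgeR adjusted p = 0.00441). Stoml3, a membrane protein of sensory neurons, Gng13, a G protein gamma subunit, and Pde1c, a phosphodiesterase of their cilia, also fell, with log2 ratios of -1.97, -1.52 and -0.60. Cngb1, a subunit of the channel opened by cyclic AMP, fell by 1.52 on the log2 scale (edgeR, adjusted p = 0.0108), and Adcy3, the cyclase that makes it, fell by 0.41 (adjusted p = 0.0284). Cnga2, the main subunit of the channel, had -1.24 (adjusted p = 0.0989) and Gnal, the G protein alpha subunit that odorant receptors activate, had -0.27 (adjusted p = 0.101), and neither passed. The genes that rose were Slc24a4, which removes calcium from the cilia, by 0.77, and Grk3, a kinase that desensitises receptors, by 0.35. Gng13, Pde1c, Adcy3, Gnal and Grk3 were highest in the library labelled left 1038, at 150, 105, 50.1, 130 and 246 CPM. Reads of these need not come from sensory neurons, since Omp, S100a5, Stoml3 and Cngb1 had 0 to 2 reads there. Left 1039 was lower than left 1037 in Omp, S100a5 and Stoml3, and also in the receptor sums. The differences between these genes and the receptor sum were not tested.

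**Figure D5:**
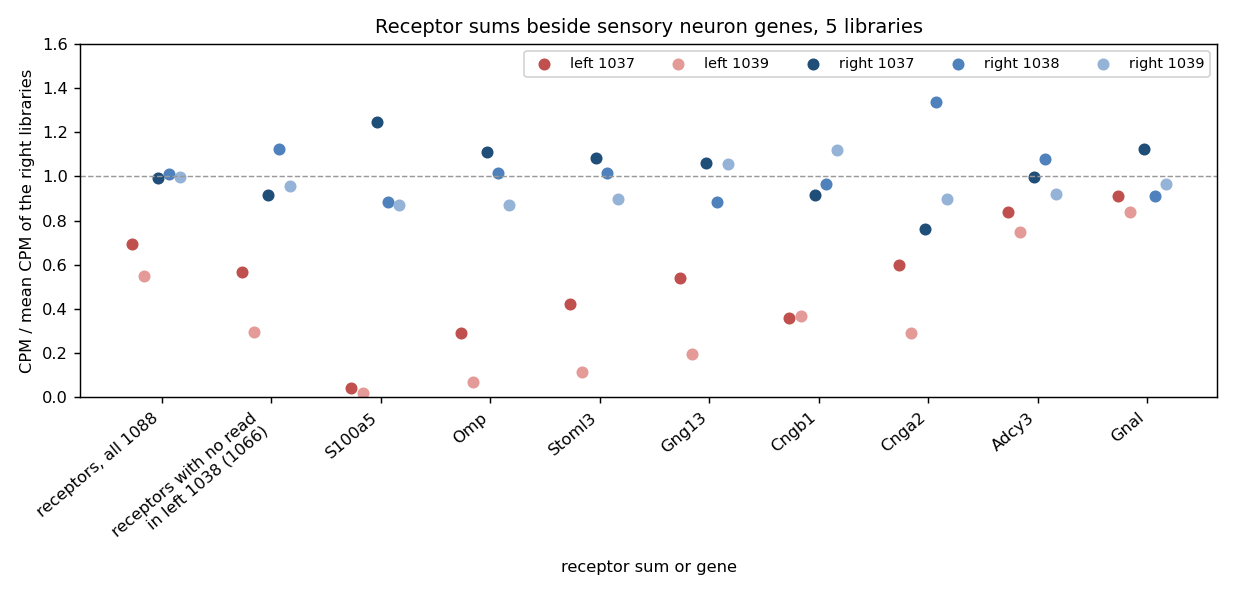
CPM of each of the 5 libraries divided by the mean CPM of the 3 right libraries (vertical axis, linear from 0, dashed line at 1), for the sum of all receptor genes, the sum of receptors without a read in the library labelled left 1038, and 8 sensory neuron genes (horizontal axis). Red points are left and blue points right. The left points of S100a5 and Omp lie farther below 1 than those of the receptor sums, and left 1039 lies below left 1037 in every column but that of Cngb1.

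Genes that serve receptor expression moved in both directions. Of 18 tested, 3 fell and 2 rose, with a median of 0.13, beside 931 lower and 456 higher of all 14412 genes tested. Atf5, a transcription factor of the feedback signal that stabilises receptor choice, fell by 1.58 (edgeR, adjusted p = 7.04e-05), from 56.6, 59.9 and 55.8 CPM on the right to 21.8 and 18.9 CPM on the left. Rtp2, which carries receptors to the cell surface, fell by 1.97 (adjusted p = 0.0202), while its partner Rtp1 had 0.27 (adjusted p = 0.827) with 0.478 to 2.19 CPM on the right. Reep1, a membrane-shaping protein, fell by 0.30 (adjusted p = 0.0230), and Ldb1, a cofactor of receptor enhancers, and Ebf4, an Olf/EBF factor, rose by 0.26 and 0.56 (adjusted p = 0.0416 and 0.0438). Cells of the bulb itself also express Ldb1 and Reep1. Of 15 genes of axon sorting, which bring axons of like receptor together, 1 fell and 2 rose, with a list median of -0.10. The adhesion molecule Kirrel3 fell by 0.45 (edgeR, adjusted p = 0.0406). The semaphorin receptor Plxna1 and the guidance cue Slit1 rose by 0.49 and 0.61 (adjusted p = 0.0280 and 0.0423). The library labelled left 1038, where Omp had 2 reads, held Kirrel3 and Plxna1 at 82.1 and 165 CPM and Atf5 and Ebf4 at 11.9 and 8.44 CPM. Reads of these need not come from sensory neurons. Rtp2 and Slit1 had 0.137 and 0.343 CPM there. The 12 genes of the 3 lists that fell became 6 without left 1039, 6 without right 1037 and 7 without right 1038.

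Levels of other cell types were set beside the receptor sums. Markers of supporting and gland cells of the nasal epithelium, where receptor cell bodies lie, had a summed level of 8.49 and 3.39 CPM on the left and 4.49, 15.2 and 9.69 CPM on the right, and 0 of the 4 were called (edgeR, 1 at an unadjusted p under 0.05). All 4 of these markers were above 0 in each of the 5 libraries. Right 1038, which held the most of these markers, also had the most receptor genes with a read, 128 against 102 in right 1037 and 93 in right 1039. By summed reads it held 19.8 CPM over all receptor genes, against 19.4 in right 1037 and 19.6 in right 1039. Its 15.1 CPM over the members was the lowest of the right libraries. Left 1037 had more of these markers than right 1037 but a lower receptor sum. Ensheathing glia, which wrap the olfactory nerve, had 615 and 372 CPM on the left and 644, 693 and 685 CPM on the right, and 1 of 4 markers, S100b, fell by 0.51 (edgeR, adjusted p = 0.0143). Among cells of the bulb, Th, the dopamine-synthesis enzyme of periglomerular interneurons, had a log2 ratio of -1.82 (edgeR, adjusted p = 8.11e-05). Dlx1, Dlx2 and Meis2, also listed for interneurons, had -0.06, 0.02 and -0.17, and none was called. The 4 interneuron markers together held 1105 and 1301 CPM on the left and 1252, 1437 and 1345 CPM on the right. Tbx21, a transcription factor of mitral and tufted cells, rose by 0.65 (adjusted p = 0.00580). Cdhr1, Eomes and Slc17a7, also listed for these cells, had log2 ratios of -0.16, -0.06 and -0.03, and none was called. The 4 markers of these cells together held 1753 and 1493 CPM on the left and 1563, 1695 and 1576 CPM on the right. Stmn2, listed for immature sensory neurons but also made by other neurons, rose by 0.42 (adjusted p = 0.00209). The part of these cells in the receptor differences was not tested.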

How the data were processed

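Polyadenylated RNA was measured in 6 libraries labelled as olfactory bulbs. The values analysed are the deposited read counts per gene, not normalized per the file headers. RPKM values, which the authors deposited beside them, were left aside. The deposited gene length, per the file headers, served only to class gene models as short or long. It lay within 1 base of the genomic span in 8.55% of the receptors, so the exons the authors counted are not known. The submitters' processing notes name the build GRCm38 and, with no role or order, HTSeq 0.6.1p2, TopHat2, cutadapt 1.2.1 and DESeq 1.18.0. The use of strand and the treatment of reads with several positions are not given in the sources used here.

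Identifiers were matched to GENCODE vM21 (GRCm38), with a symbol for 21852 of 22095 genes. Sums are CPM of the library total with 95% Wilson intervals, and within-mouse ratios have exact conditional binomial intervals. Single genes were tested over the whole table with edgeR 4.0.16 (TMM scaling, filterByExpr, glmQLFit and glmQLFTest) in R 4.3.3, side as the only term, two-sided, with Benjamini-Hochberg adjustment over all genes tested and calls under 0.05. Each adjusted p is from this test unless another is named. The library labelled left 1038 was left out of it. Transcripts of receptors were compared with blastn 2.17.0 over at least 800 bases.

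Both bulbs of a mouse carry the same number in the labels, so they are paired. The correlation of deviations in the 4 libraries of mice 1037 and 1039 was 0.288. The test was planned without the block. Mice are separate animals per the labels. The alternatives were RLE factors, total size, no filter, DESeq2 1.42.0, limma-voom 3.58.1, the mouse as block, leaving out each library, all 6 libraries, and other rules for members, overlaps and detection.

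The members, the gene lists and the tests were chosen with earlier results of these data known. Named members are the 20 with the highest mean CPM, those tested, those with reads in all 5 libraries, and up to 10 with reads on one side alone. Other genes come from fixed lists, up to 6 per list by p. The promoters, the clusters, Olfr560, Adcy3, Cnga2, Gnal, Slc24a4, Grk3, Rtp1 and the genes of the last section were chosen after values were seen.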

Additional observations from a re-analysis of the deposited data

Results flagged for a closer look

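The library labelled left 1038, which entered no comparison, held more receptor reads than the 3 that a count of 0 allows. All odorant receptor genes together had 135 reads there and the detected receptors 108. Single genes above that limit were Olfr613 with 41 reads, Olfr287 with 31, Olfr558 with 11, Olfr1564 with 8, Olfr658 with 6 and Olfr78 with 5. Olfr613, Olfr1564 and Olfr658 had more reads there than in any of the other 5 libraries.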

How the results depend on the processing

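Depth limits most of these results: single reads decide the detection of most members, and left and right rest on 2 and 3 libraries. The ratio of the members' sum (0.683) was 0.634 to 0.733 when each library was left out in turn, and that of all receptor genes (0.621) was 0.548 to 0.694. With the mouse as a replicate block, which rests on mice 1037 and 1039, they were 0.665 and 0.620, and with the 6 libraries 0.611 and 0.572. Over receptors without a read in the library labelled left 1038, an alternative chosen after seeing the data, they were 0.476 and 0.433, since the receptors left out of the sum were about as high on both sides. The number of called members was 1 without the filter and 0 in the other alternatives. Of the pathway genes, 12 fell, and 8 with scaling by the library total alone (20 and 14 at an unadjusted p under 0.05). The number was 6 to 11 with a right library left out, 0 in the 6 libraries (5 at an unadjusted p under 0.05) and 15 with the replicate block.

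The log2 ratio of Olfr32 ran from -0.62 to 0.30 with a library left out (0.30 without left 1039). Olfr613 had 0.17 in the 6 libraries. Olfr920, near 0, had 0.077 by total library size, 0.0046 without the filter, 0.0035 by DESeq2, 0.38 with the replicate block, and -0.76 to 0.50 with a library left out. The causes were not tested. With the block, Olfr287 had -0.92 (adjusted p = 0.0508), and the block ended no call and added none among the 5 members tested. Over all genes, leaving out a library gave 479 to 768 lower and 172 to 366 higher calls, and the block 1061 and 492.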

Other observations

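Other chemoreceptor families were also detected by the same rule. Reads in at least 2 of the 5 libraries were present for 1 of 15 trace amine-associated receptors (6.67%), 9 of 169 vomeronasal type 1 receptors (5.33%), 11 of 123 vomeronasal type 2 receptors (8.94%) and 4 of 35 bitter taste receptors (11.4%). A type 1 vomeronasal receptor, Vmn1r206, named after its values were seen, had more reads than Olfr287 in both left libraries. It had 117 and 111 reads on the left, 52, 40 and 69 on the right and 0 in the library labelled left 1038. Both left libraries lay above all 3 right libraries, with 7.47 ± 0.150 CPM (SD, n = 2) against 3.57 ± 1.05 CPM (SD, n = 3), and it rose by 0.99 on the log2 scale (SE 0.24, edgeR adjusted p = 0.0306). Trpc2, a channel that vomeronasal neurons need, had 0 reads in all 6 libraries.

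The overlap of the receptors seen in 2 libraries varied. Of the receptor genes with a read, 62 in left 1037 and 33 in left 1039, 14 were shared (22.6% and 42.4%). Right 1037 and right 1038 shared 43 (42.2% of 102 and 33.6% of 128), and right 1038 and right 1039 shared 46 (35.9% and 49.5% of 93). Of the 33 receptors of left 1039, 21 were also seen in right 1038 (63.6%), 20 in right 1039 (60.6%) and 13 in right 1037 (39.4%). Of the 62 of left 1037, 29 were also seen in right 1038 (46.8%), 22 in right 1037 (35.5%) and 22 in right 1039 (35.5%). These shares also depend on how many receptors the other library held.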
